A study of Homo sapiens with 27 samples.

Results

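The 39 genes described here belong to the unfolded protein response (UPR) and the integrated stress response (ISR). They were chosen by name, as known members of these pathways, from the 60619 genes of a table of RNA-Seq counts. Earlier results of these data were known at that time, so the choice was not blind to them. All 39 were found in the table by Ensembl identifier and symbol. The counts came from 2 human cell lines of estrogen receptor-positive invasive lobular breast carcinoma (ILC), MM134 (MDA-MB-134VI) and SUM44, and from long-term estrogen-deprived (LTED) lines grown out of them as models of resistance to aromatase inhibitors.

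Proteins that enter the endoplasmic reticulum (ER) are folded there with the help of chaperones, joined by disulfide bonds and, when they fail to fold, sent back to the cytosol and degraded. When unfolded proteins build up, the sensors IRE1 (ERN1), ATF6 and PERK (EIF2AK3) start the UPR: IRE1 splices XBP1 mRNA so that it encodes an active transcription factor, ATF6 is cut to release another, and PERK phosphorylates the initiation factor eIF2, which slows translation as a whole but favours translation of ATF4. PERK shares that target with kinases that sense amino acid shortage, viral RNA or lack of heme, and the ATF4 program they have in common is the ISR. In luminal breast cells XBP1 is also known as an abundant, estrogen-responsive transcript. Gene counts hold the amount of RNA of each gene, so splicing of XBP1, cleavage of ATF6 and phosphorylation of PERK or eIF2 were not measured here.

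The 9 groups had 3 wells each. MM134 parental cells were compared with 4 LTED lines (LTED-A, -B, -D and -E), and SUM44F, the parental culture of the SUM44 lines, with 2 LTED lines (LTED-A and LTED-B). SUM44F had been made from SUM44PE cells by months of culture in the serum-containing medium of MM134, and SUM44PE itself was sequenced as well. MM134 parental cells and SUM44F were grown in medium with whole fetal bovine serum. Every parental culture was kept without hormones for the last 3 days before collection, in another basal medium (IMEM) with charcoal-stripped serum. The LTED lines had been maintained for months in IMEM with stripped serum. Stripping takes out other lipophilic compounds as well as estradiol. The part of the medium and of the time spent in it was not tested. Each LTED line is 1 outgrowth of estrogen-independent cells and the replicates are wells seeded in parallel, so p-values measure the spread between wells, which may be technical.

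The 27 libraries held 28583554 to 134882175 estimated counts (median 44018412). The distance between replicates 2 and 3 of SUM44 LTED-A was smaller than sampling noise alone would give (chi-square per degree of freedom 0.312, against 2.35 to 58.3 for the other 26 pairs of replicates), so they were counted as 1 sample, the mean of both, which left 2 samples of that line and 26 in all. Those 2 samples of SUM44 LTED-A were also farther apart than any other pair of replicates. The summed level of 6 luminal epithelial markers (KRT8, KRT18, KRT19, EPCAM, GATA3 and FOXA1) was 4013 to 7033 CPM (counts scaled to a library of common size) in every sample. It rose with the MM134 groups, from 4013 to 4042 CPM in parental wells to between 5623 and 6946 CPM in the LTED wells. The summed level of immune markers was at most 1.62 CPM in MM134 parental wells, 24.1 to 24.7 CPM in LTED-A and between 4.45 and 9.70 CPM in the other MM134 LTED lines. CD68 (13.8 to 15.2 CPM in LTED-A) and LYZ (9.23 to 10.3 CPM) carried that sum, while PTPRC, which marks leukocytes in general, CD3E, CD14 and NKG7 were at no more than 0.365 CPM in any MM134 well. The part of these marker changes in the MM134 results was not tested. SUM44F replicate 1 stood apart: it held the highest level of all 6 fibroblast markers tested (COL1A1, COL1A2, COL3A1, DCN, LUM and PDGFRB), which summed to 361 CPM there, to 8.40 and 9.47 CPM in the other SUM44F replicates and to at most 36.0 CPM in any other sample. LUM, for one, was at 57.2 CPM there and at no more than 0.0252 CPM in the other SUM44 samples. Its immune markers summed to 10.6 CPM (2.25 and 2.54 CPM in the other SUM44F replicates) and its endothelial markers to 44.9 CPM (25.9 and 31.3 CPM). SUM44 results are therefore also given without this library wherever that changes a call. SUM44F replicate 3, the deepest SUM44F library, was farther from replicates 1 and 2 (chi-square per degree of freedom 42.9 and 39.2) than these were from each other (14.2). Without replicate 3, the calls against SUM44F of PDIA6 in LTED-A and of CALR, CRELD2 and SEC61B in LTED-B were lost. EDEM2 in LTED-A was then called lower.

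In these bulk samples, fewer cells with a transcript and less of it per cell cannot be told apart. Levels are CPM on a scale normalized over all samples by TMM, and differences are log2 fold changes against parental cells with their standard error (SE), from edgeR's quasi-likelihood test. A gene was called higher or lower (differentially expressed) when its change passed 1.5-fold and its adjusted p was under 0.001, the Benjamini-Hochberg adjustment running over every gene tested (26061 for MM134, 26834 for SUM44).

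The UPR acts on its target genes through short elements near their start. The ER stress response element (ERSE), at which ATF6 and spliced XBP1 are known to act with the factor NF-Y, consists of CCAAT and CCACG separated by 9 bases. The 250 bases before the annotated start were searched on both strands in RefSeq promoters (GRCh38.p14), which held 37 of the 39 genes. An exact ERSE was present in 26 of 35116 promoters (0.074%), of 25 of 27305 genes (0.0916%), and in 8 of the 37 genes (21.6%). Among 105 other genes of the same pathways, 87 had a promoter entry and 0 of them an ERSE. The sites are shown because they are the part of these genes' DNA that the UPR is known to read. Capitals mark the element with its 9 inner bases, on the strand that reads CCAAT first, and lower case the bases on each side.
XBP1 (chr22:28800591-28800633, minus strand): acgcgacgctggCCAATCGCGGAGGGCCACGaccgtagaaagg
HSPA5 (chr9:125241379-125241421, minus strand): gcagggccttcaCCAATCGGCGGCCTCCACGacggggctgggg
HSP90B1 (chr12:103930204-103930246, plus strand): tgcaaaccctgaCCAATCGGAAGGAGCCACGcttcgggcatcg
HSP90B1 (chr12:103930309-103930351, minus strand): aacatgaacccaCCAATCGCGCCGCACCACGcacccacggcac
PDIA6 (chr2:10812841-10812883, minus strand): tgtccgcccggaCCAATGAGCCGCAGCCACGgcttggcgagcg
CALR (chr19:12938372-12938414, minus strand): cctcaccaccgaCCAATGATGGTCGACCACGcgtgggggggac
CANX (chr5:179698766-179698808, plus strand): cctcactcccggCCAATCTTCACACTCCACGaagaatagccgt
CRELD2 (chr22:49918542-49918584, minus strand): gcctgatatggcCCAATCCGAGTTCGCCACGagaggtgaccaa
ERO1B (chr1:236282171-236282208, plus strand): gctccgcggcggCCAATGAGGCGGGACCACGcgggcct

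HSP90B1 carried 2 sites, 1 on each strand. Counted from the RefSeq start used, the site of XBP1 lay 34 to 52 bases before it, that of HSPA5 48 to 66 bases, that of PDIA6 68 to 86 bases and that of ERO1B 225 to 243 bases. Some sites precede a start within the gene as GENCODE annotates it, such as those of PDIA6 (gene at chr2:10783391-10837977) and CANX (gene at chr5:179678628-179731641). HSPA5 is the textbook case of such a promoter, and its 250 bases are shown whole in the sense of the gene (chr9:125241344-125241593, minus strand), with the 1 exact match in capitals:
HSPA5: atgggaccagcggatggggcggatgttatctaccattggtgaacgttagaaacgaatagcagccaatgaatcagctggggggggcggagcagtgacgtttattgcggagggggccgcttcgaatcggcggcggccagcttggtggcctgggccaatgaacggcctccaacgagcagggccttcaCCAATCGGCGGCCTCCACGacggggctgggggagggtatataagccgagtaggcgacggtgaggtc
Other CCAAT sequences in it have no CCACG at this distance. A match is a description of letters in this window and does not show that a factor binds there.

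Of the other elements searched, the UPR element TGACGTGG was in 1 of the 37 genes (2.70%, against 0.780% of all genes and 9.20% of the 87 other pathway genes), and the C/EBP-ATF element TGATGNAA, through which ATF4 is known to act, was in 3 of them (8.11%, against 3.89% and 8.05%). The matches are shown with the element in capitals, since they include a pair of the ISR genes that the results turn on, CHAC1 and ASNS.
HYOU1 (chr11:119057374-119057405, minus strand): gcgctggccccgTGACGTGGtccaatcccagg
HERPUD1 (chr16:56931954-56931985, minus strand): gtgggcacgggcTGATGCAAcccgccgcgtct
CHAC1 (chr15:40953250-40953281, minus strand): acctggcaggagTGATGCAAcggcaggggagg
ASNS (chr7:97872457-97872488, minus strand): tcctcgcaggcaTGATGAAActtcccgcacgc

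In every LTED line, more of the stress response genes were called higher than lower. All 39 passed the filter on low counts in every fit. In MM134, 20 of the 39 were called higher in LTED-A, 15 in LTED-B, 14 in LTED-D and 20 in LTED-E, while 1, 1, 1 and 3 were called lower. Over all genes tested, 10.5%, 8.11%, 9.63% and 8.71% were called higher and 9.82%, 7.75%, 7.95% and 10.3% lower, so the shares called higher (51.3%, 38.5%, 35.9% and 51.3% of the 39) were well above those of all genes. The median log2 fold change of the 39 genes was 0.60, 0.52, 0.43 and 0.60, and that of all genes tested was between -0.03 and 0.02. These are abundant genes, of which 38 averaged at least 5 CPM over the samples of both cell lines. Among all genes of the MM134 fit with such a level, the share called higher was 14.5%, 11.0%, 13.9% and 12.3%. In at least 3 of the 4 MM134 variants, 13 of the 39 were called higher (6.66% of all genes tested) and 1 was called lower (6.83%). XBP1, CREB3L1, CREB3L2, HSPA5, FKBP11, PDIA3, TRIB3 and CHAC1 were higher in all 4, and PPP1R15A was lower in all 4.

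In SUM44 higher calls also outnumbered lower ones, by less in LTED-A than in LTED-B. In SUM44 LTED-A 9 of the 39 genes were called higher and 4 lower (6.39% and 7.28% of all genes tested), and in LTED-B 19 were called higher and 3 lower (8.69% and 8.57%). Both variants shared 8 higher genes (XBP1, CRELD2, ERO1A, ATF4, DDIT3, TRIB3, CHAC1 and ASNS, where 3.87% of all genes were higher in both) and 3 lower ones (HERPUD1, ERO1B and PPP1R15A, where 4.75% were lower in both). The median log2 fold change was 0.18 in LTED-A and 0.62 in LTED-B. It was -0.06 and -0.09 over all genes, and 0.10 and 0.155 over genes of at least 5 CPM. Among the latter, 12% and 16.6% were called higher and 9.27% and 9.76% lower. Of the 39, 23.1% were called higher and 10.3% lower in LTED-A, and 48.7% and 7.69% in LTED-B. The lower share in LTED-A was thus near that of genes of like level, and 5 of its 9 higher calls were among the 7 ISR genes. Without SUM44F replicate 1 the counts were 9 higher and 3 lower in LTED-A and 19 and 3 in LTED-B, and the lists of genes called in both variants were unchanged. The variants of a cell line share their parental libraries, so a call in several of them is not an independent repeat.

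**Figure D1:**
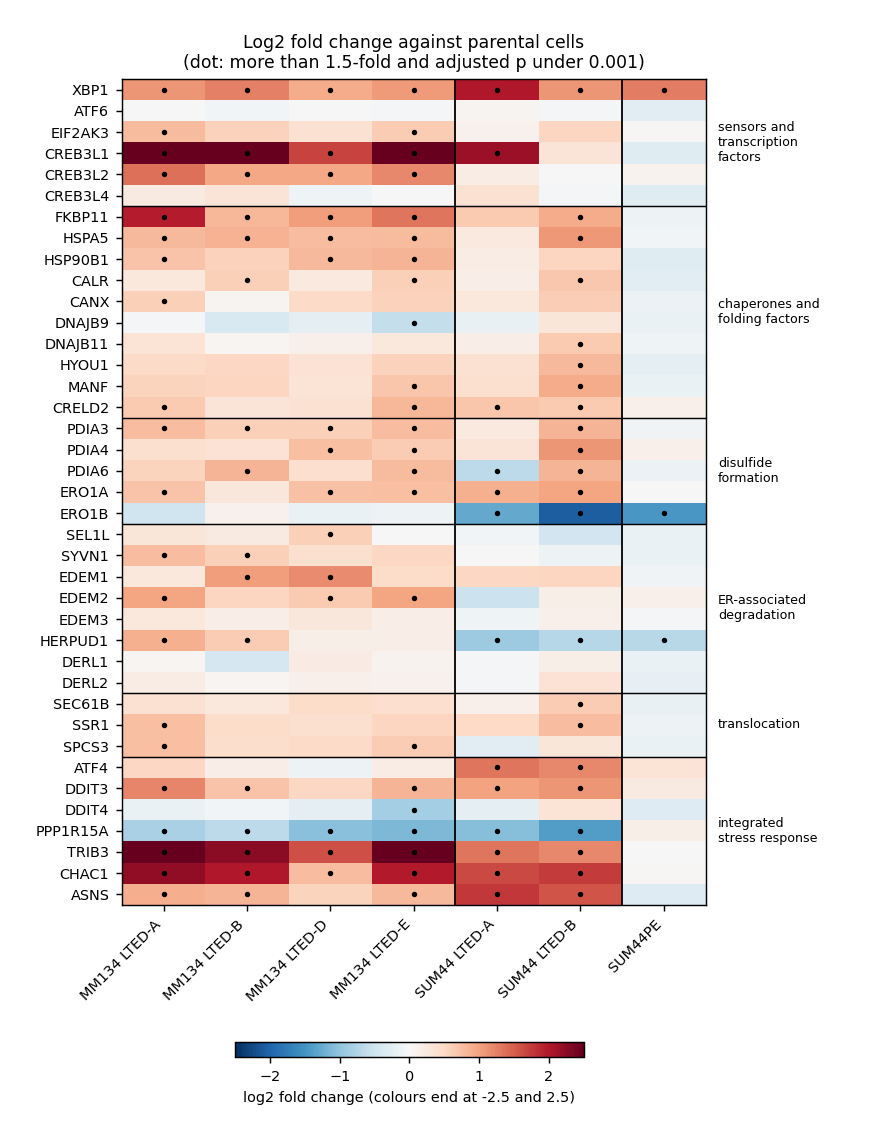
Log2 fold change of the 39 genes (rows, by role) in each LTED line and in SUM44PE (columns) against MM134 parental cells or SUM44F. Red is higher, blue is lower and a dot marks a call (more than 1.5-fold, adjusted p under 0.001). The 20 higher calls of MM134 LTED-A fall in every role, while in SUM44 LTED-A 5 of the 9 higher calls are ISR genes.

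Among the sensors and transcription factors, XBP1, CREB3L1 and CREB3L2 were called higher in every MM134 variant, while of the sensor genes EIF2AK3 was called in 2 and ATF6 in 0. XBP1, the transcription factor made active by IRE1 splicing (chr22:28794555-28800597, hg38), was the most abundant of the 39 genes per length of transcript in MM134 parental cells (426 CPM per kb of exon). Its level was 1302, 1245 and 1320.0 CPM in the 3 MM134 parental wells. It was 2736, 2783 and 2822 CPM in LTED-A, 3027, 3102 and 3150.0 in LTED-B, 2414, 2456 and 2416 in LTED-D and 2683, 2669 and 2709 in LTED-E. Every LTED well lay above every parental well, and XBP1 was higher by 1.10 ± 0.03, 1.27 ± 0.03, 0.93 ± 0.03 and 1.07 ± 0.03 (log2, SE), with adjusted p of at most 1.53e-15 in edgeR's test.

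In SUM44, XBP1 was at 309.9, 304 and 301 CPM in SUM44F, 1095 and 1356 CPM in the 2 samples of LTED-A and, in LTED-B, 651, 646 and 662 CPM. The call was higher in both (2.01 ± 0.11, adjusted p 2.78e-07, and 1.10 ± 0.10, adjusted p 8.7e-06). SUM44PE, however, had 705, 774 and 748 CPM, so that LTED-B lay below every well of the culture from which SUM44F was made. Against SUM44PE in place of SUM44F, a comparison added after these values were seen, XBP1 differed by 0.76 (log2) in LTED-A (adjusted p 5.16e-05) and by -0.16 in LTED-B (adjusted p 0.17), and the LTED-B call was lost. The median log2 fold change of the 40 expressed genes nearest to XBP1 on chromosome 22 was 0.66 in SUM44 LTED-A, 0.56 in SUM44PE and -0.16 in LTED-B. Their part in the XBP1 difference was not tested. In MM134 LTED-A the same neighbours had a median of -0.10.

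CREB3L1, a transmembrane factor of the ATF6 type that is cut and released like it, had the largest fold changes of this role in MM134. It rose from 1.20, 1.83 and 1.59 CPM in parental wells to 14, 15.3 and 15.5 CPM in LTED-A, 9.87, 8.01 and 8.86 in LTED-B, 5.23, 3.65 and 5.85 in LTED-D and 14.2, 12.6 and 13.5 in LTED-E, without overlap. The log2 fold changes were 3.26 ± 0.15, 2.53 ± 0.16, 1.69 ± 0.17 and 3.13 ± 0.15 (adjusted p at most 1.07e-07). CREB3L1 was at 11.5, 12.4 and 10.3 CPM in SUM44F, in LTED-A at 71.6 and 29.3 CPM and in LTED-B at 13.8, 14.8 and 14.2 CPM. LTED-A was called (2.15 ± 0.27, adjusted p 0.000136), and its 2 samples differed more than 2-fold, so that the value ran from 1.41 without replicate 1 to 2.66 without the other sample (the merged replicates 2 and 3), both called. LTED-B was not called (0.33 ± 0.25), and against LTED-A it was called lower (-1.82 ± 0.27, adjusted p 0.000722).

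CREB3L2, a factor of the same family, was called higher in every MM134 variant and in neither SUM44 variant. Its wells were at 12.1, 12.6 and 11.0 CPM in MM134 parental cells, 29.6, 32.2 and 31.6 in LTED-A, 22.8, 22.9 and 23.8 in LTED-B, 24.6, 21.3 and 23.9 in LTED-D and 26.9, 26.1 and 28.4 in LTED-E (log2 fold changes 0.96 to 1.38, adjusted p at most 1.12e-10). Its neighbours on chromosome 7 had a median of 0.49 in LTED-D and their part there was not tested. In SUM44 CREB3L2 was at 20.7, 17.8 and 17.9 CPM in SUM44F, in LTED-A at 28.3 and 14.4 and in LTED-B at 19.4, 19.0 and 17.8 CPM, groups that overlapped (0.18 ± 0.22 and -0.01 ± 0.20). Of the remaining genes of this role, EIF2AK3 (PERK) was called higher in MM134 LTED-A and LTED-E (0.80 and 0.64) and lay just below the fold threshold in LTED-B (0.58). CREB3L4 was called in no variant (-0.10 to 0.39). ATF6 was called in no variant either (-0.07 to 0.07).

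**Figure D2:**
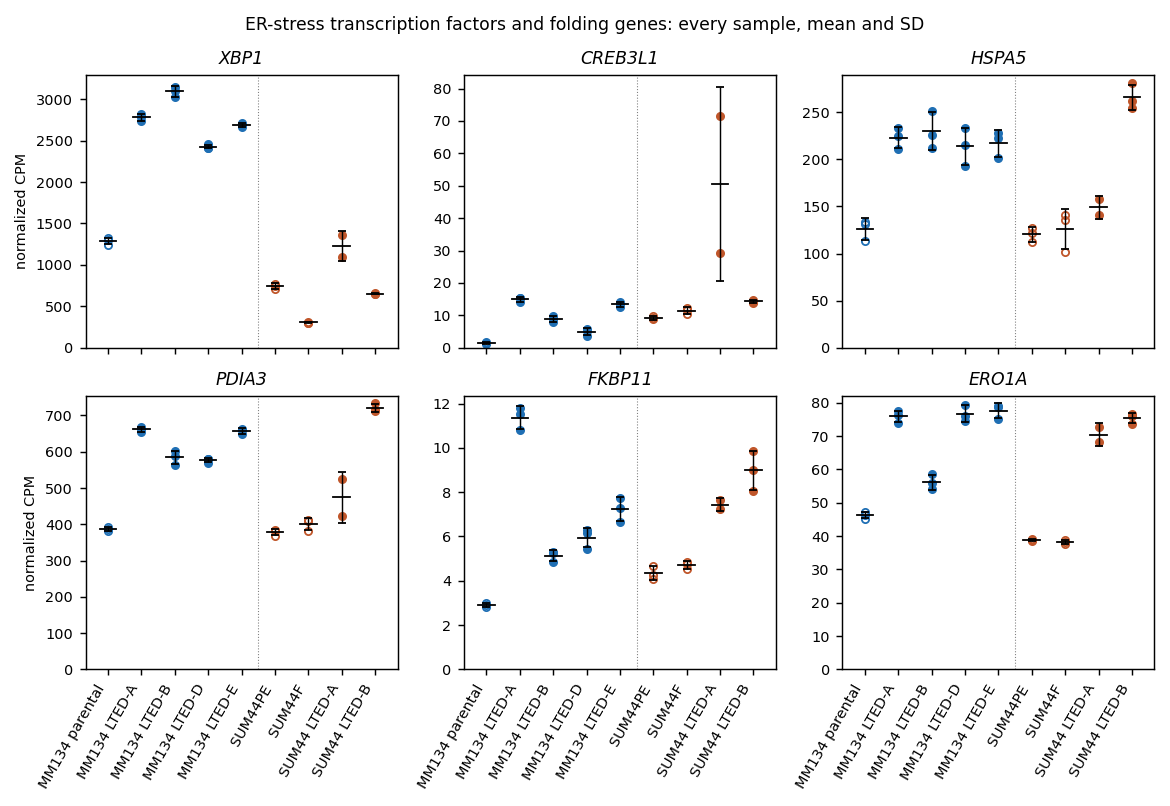
Level (normalized CPM, linear axes from 0) of 6 UPR genes in each group. Points are samples, open for parental cultures, and bars are mean and SD (2 samples in SUM44 LTED-A, 3 elsewhere). XBP1 in SUM44 LTED-B lies above SUM44F and below SUM44PE, and the 2 samples of CREB3L1 in SUM44 LTED-A are at 71.6 and 29.3 CPM.

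Chaperones and folding factors were called higher in every MM134 variant, and in SUM44 against SUM44F more of them passed in LTED-B than in LTED-A. Of 10 genes in this role, 5, 3, 3 and 6 were called higher in MM134 LTED-A, -B, -D and -E, and 1 was called lower in LTED-E. Among genes with at least 5 CPM, 14.5%, 11.0%, 13.9% and 12.3% were called higher there, and 11.9% lower in LTED-E. SUM44 had 1 of the 10 called higher in LTED-A and 7 in LTED-B, where 12% and 16.6% of genes with at least 5 CPM were. The 1 of 10 in SUM44 LTED-A and the 1 lower call in MM134 LTED-E were thus near those shares. None of the 10 was called by edgeR when LTED-B was tested directly against LTED-A, HSPA5 being just over the threshold. HSPA5 (BiP), the main Hsp70 chaperone of the ER and the protein that holds the sensors inactive, was at 132, 134 and 113 CPM in MM134 parental wells. It was at 211, 225 and 233 CPM in LTED-A, 212, 226 and 252 in LTED-B, 233, 193 and 216 in LTED-D and 222, 201 and 228 in LTED-E. The 4 variants rose by much the same amount (log2 fold changes 0.77 to 0.87, SE 0.07, adjusted p at most 4.55e-08), and the spread among them did not pass the test (adjusted p 0.645).

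In SUM44F HSPA5 was at 141, 135.1 and 101 CPM, in LTED-A at 158 and 141 CPM and in LTED-B at 262, 281 and 255 CPM. LTED-B stood clear of the others (1.08 ± 0.12, adjusted p 3.3e-05), while LTED-A reached 0.25 ± 0.13 (adjusted p 0.168). The direct difference between both was 0.83 ± 0.13 with an adjusted p of 0.00109, just over the threshold, and it was called without SUM44F replicate 1 (0.83, adjusted p 0.000819). HSP90B1 (GRP94), the Hsp90 of the ER, was at 468, 445 and 442 CPM in MM134 parental wells and at 737, 747 and 739.8 CPM in LTED-A, 650.2, 691 and 673 in LTED-B, 776, 786 and 794 in LTED-D and 814, 801 and 824 in LTED-E. All LTED wells lay above the parental ones, and 3 of the 4 variants passed both thresholds, LTED-B being at 0.58 (adjusted p 1.88e-12) just under 1.5-fold. In SUM44 it was at 802, 825 and 802 CPM in SUM44F, 811 and 1023 in LTED-A and 1187, 1139 and 1184 in LTED-B, and neither was called (0.18 ± 0.12 and 0.53 ± 0.11, adjusted p 0.279 and 0.00232).

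FKBP11, a prolyl isomerase of the secretory pathway, had the largest log2 fold change of this role in MM134 LTED-A and was among the genes of low level. The study had singled it out on these same samples, so its direction here is not independent evidence. It was at 2.83, 2.89 and 2.98 CPM in MM134 parental wells, 10.8, 11.5 and 11.8 in LTED-A, 5.29, 4.87 and 5.25 in LTED-B, 6.13, 5.45 and 6.27 in LTED-D and 7.76, 6.67 and 7.29 in LTED-E. LTED-A stood above the other 3 variants, whose wells lay between 4.87 and 7.76 CPM, and all 4 were called (1.96 ± 0.08, 0.83 ± 0.09, 1.05 ± 0.09 and 1.33 ± 0.08). The difference among variants was called as well (largest difference 1.13, adjusted p 5.72e-10). In SUM44F it was at 4.86, 4.53 and 4.75 CPM, in LTED-A at 7.64 and 7.23 CPM and in LTED-B at 8.07, 9.86 and 9.01 CPM, with a call in LTED-B only (0.93 ± 0.11, adjusted p 6.34e-05; LTED-A 0.66 ± 0.12, adjusted p 0.00167). The change of FKBP11 in MM134 was not called different from that in SUM44 (difference 0.49 ± 0.11, under 1.5-fold).

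CRELD2, a secreted ER stress protein with disulfide isomerase activity, was the 1 gene of this role called higher in both SUM44 variants against SUM44F. Its wells were at 37.0, 37.5 and 31.7 CPM in SUM44F, 56.6 and 57.4 in LTED-A and 51.3, 56.3 and 58.7 in LTED-B (0.69 ± 0.09 and 0.65 ± 0.08, adjusted p 0.000157 and 9.49e-05). It lies on chromosome 22 as XBP1 does, and its neighbours had a median of 0.46 in LTED-A, whose part was not tested. In MM134 it was at 31.2, 31.9 and 31.9 CPM in parental wells, 49.4, 49.1 and 52.1 in LTED-A, 38.3, 39.4 and 40.03 in LTED-B, 39.6, 40.5 and 43.1 in LTED-D and 56.1, 56.4 and 55.0 in LTED-E, and was called in LTED-A and LTED-E. In SUM44 LTED-A the call rested on both samples: it was lost without either of them (adjusted p 0.00128 and 0.00106). In SUM44 LTED-B it was lost without SUM44F replicate 3 (0.57, under 1.5-fold). Against SUM44PE, CRELD2 was called in neither variant (0.58 and 0.53, both under 1.5-fold). CALR (calreticulin), a lectin chaperone of glycoproteins, was called in MM134 LTED-B and LTED-E (0.59 and 0.60) and in SUM44 LTED-B (0.67), where it lost the call in 6 of the 8 fits without 1 sample. CANX (calnexin), its membrane-bound counterpart, was called in MM134 LTED-A only (0.60, close to the fold threshold), with 0.62 in SUM44 LTED-B (adjusted p 0.00114). The co-chaperone DNAJB11 and the chaperone HYOU1 were called only in SUM44 LTED-B (0.65 and 0.80), and MANF, a secreted folding factor, in MM134 LTED-E and SUM44 LTED-B (0.69 and 0.94). DNAJB9 (ERdj4), a co-chaperone of HSPA5, went the other way in MM134, with -0.59 to -0.04 and a call in LTED-E (adjusted p 6.17e-09).

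Disulfide formation in the ER is carried out by the protein disulfide isomerases, which ERO1A and ERO1B keep oxidized. PDIA3, the isomerase that works with calnexin and calreticulin, was at 386, 382 and 393 CPM in MM134 parental wells, 654, 664 and 668 in LTED-A, 564, 587 and 602 in LTED-B, 570.2, 579.8 and 579 in LTED-D and 659.6, 648 and 662 in LTED-E. Its wells were tight and all 4 variants were called (0.59 to 0.77, SE 0.02, adjusted p at most 3.6e-13), with LTED-B and LTED-D close to the 1.5-fold threshold. In SUM44 it was at 411, 409.7 and 381 CPM in SUM44F, 424 and 525 in LTED-A and 714, 714 and 735 in LTED-B, with a call in LTED-B (0.85 ± 0.10, adjusted p 5.05e-05). ERO1A was higher in 3 MM134 variants and both SUM44 variants. Its level was 47.2, 45.2 and 46.4 CPM in MM134 parental wells, 76.4, 77.4 and 74.0 in LTED-A, 55.9, 58.5 and 54.1 in LTED-B, 76.1, 79.4 and 74.5 in LTED-D and 79.2, 75.1 and 78.7 in LTED-E (log2 fold changes 0.71 ± 0.04, 0.28 ± 0.04, 0.74 ± 0.04 and 0.76 ± 0.04). SUM44F had 38.7, 37.6 and 38.3 CPM, against 68.1 and 72.8 in LTED-A and 73.6, 76.1 and 76.6 in LTED-B (0.88 ± 0.06 and 0.98 ± 0.06, adjusted p 2.22e-06 and 4e-07).

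ERO1B, the paralog of ERO1A that secretory cells such as the pancreatic islet use, fell in SUM44 against SUM44F. Its wells were at 214, 222 and 244 CPM in SUM44F, 86.3 and 99.8 in LTED-A and 56.2, 51.8 and 54.8 in LTED-B (-1.28 ± 0.09 and -2.06 ± 0.08, adjusted p 2.4e-06 and 2.47e-08), groups far from overlap. SUM44PE was at 82.6, 84.2 and 82.8 CPM and so was also lower than SUM44F (-1.46 ± 0.07). Against SUM44PE, LTED-A differed by 0.20 (adjusted p 0.0678) and LTED-B by -0.59 (adjusted p 2.1e-05), so the fall in LTED-A was found only against SUM44F. In MM134 ERO1B was at 38.1, 37.3 and 37.6 CPM in parental wells, 27.5, 26.6 and 26.8 in LTED-A, 38.3, 39.4 and 43.5 in LTED-B, 34.5, 33.0 and 32.6 in LTED-D and 35.8, 33.4 and 33.2 in LTED-E, with no call (-0.49 to 0.10).

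PDIA4 and PDIA6, the other 2 isomerases listed, split the SUM44 variants. PDIA6 was at 121, 111 and 104 CPM in SUM44F, 63.0 and 78.4 in LTED-A and 194, 206 and 203 in LTED-B. PDIA4 was at 196, 189 and 161 CPM in SUM44F, 212 and 241 in LTED-A and 381, 391 and 397 in LTED-B. PDIA4 was called higher in SUM44 LTED-B (1.10 ± 0.09) and differed between LTED-B and LTED-A (0.78 ± 0.11, adjusted p 0.000347). PDIA6 was called lower in LTED-A (-0.66 ± 0.11, adjusted p 0.000623) and higher in LTED-B (0.84 ± 0.09, adjusted p 3.55e-05), a difference of 1.503 ± 0.11 (adjusted p 4.56e-06). The median of its 40 neighbours on chromosome 2 was -0.43 in LTED-A and 0.40 in LTED-B, and their part was not tested. Its call in LTED-A was lost without SUM44F replicate 1 (-0.60, adjusted p 0.00218) and in 6 other fits that left out 1 sample. In MM134 PDIA4 was called in LTED-D and LTED-E (0.76 and 0.64) and PDIA6 in LTED-B and LTED-E (0.84 and 0.79).

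ER-associated degradation, which removes misfolded proteins from the ER, had higher calls in MM134, and in SUM44 its calls depended on the parental culture. Of 8 genes, 3, 3, 3 and 1 were called higher in the 4 MM134 variants in turn. Of genes with at least 5 CPM 14.5%, 11.0%, 13.9% and 12.3% were, so the 1 of 8 in LTED-E was near that share. In SUM44 against SUM44F 0 were called higher and 1, HERPUD1, lower in each variant. Against SUM44PE, EDEM1 was called higher in both SUM44 variants (0.62 and 0.64) and DERL2 in LTED-B (0.59). EDEM2, which trims mannose from misfolded glycoproteins, was at 12.5, 12.2 and 13.1 CPM in MM134 parental wells, 24.6, 25.96 and 24.4 in LTED-A, 17.4, 19.1 and 18.3 in LTED-B, 18.1, 20.5 and 20.5 in LTED-D and 23.4, 26.2 and 24.4 in LTED-E. No LTED well overlapped the parental ones, and 3 variants were called (0.98 ± 0.06, 0.66 ± 0.06 and 0.98 ± 0.06; LTED-B 0.54 ± 0.06). In SUM44 EDEM2 was at 17.97, 18.9 and 13.7 CPM in SUM44F, in LTED-A at 11.5 and 11.8 and in LTED-B at 18.6, 18.2 and 19.0, with no call (-0.53 ± 0.13 and 0.15 ± 0.12).

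HERPUD1, an ER membrane protein that organizes the degradation complex, was higher in a pair of MM134 variants and lower in SUM44 than in SUM44F. In MM134 it was at 28.5, 28.9 and 29.8 CPM in parental wells, 54.3, 54.3 and 52.5 in LTED-A, 43.9, 44.4 and 47.0 in LTED-B, 32.4, 31.8 and 32.0 in LTED-D and 31.1, 32.3 and 33.7 in LTED-E, and was called higher in LTED-A and LTED-B (0.88 ± 0.04 and 0.64 ± 0.04). In SUM44F it was at 99.0, 103 and 92.0 CPM, in LTED-A at 48.6 and 55.4 and in LTED-B at 61.4, 60.1 and 56.9, called lower in both (-0.91 ± 0.08 and -0.72 ± 0.07, adjusted p 1.19e-05 and 1.93e-05). SUM44PE was at 58.2, 61.6 and 62.9 CPM, and against SUM44PE the log2 fold changes were -0.19 and -0.01, neither called (adjusted p 0.0745 and 0.933). EDEM1 was called higher in MM134 LTED-B and LTED-D (1.04 and 1.17), SYVN1 (HRD1), the ubiquitin ligase of the pathway, in LTED-A and LTED-B (0.78 and 0.60), and its partner SEL1L in LTED-D (0.60). EDEM3, DERL1 and DERL2 were called in no variant of MM134, or of SUM44 against SUM44F. The 3 genes of protein entry into the ER were higher in some variants: SSR1 in MM134 LTED-A and SUM44 LTED-B, SPCS3 in MM134 LTED-A and LTED-E, and SEC61B, a subunit of the translocation channel, in SUM44 LTED-B, with fold changes from 0.64 to 0.77 (log2) where called. The call of SEC61B was lost in 5 of the 8 fits without 1 sample (without SUM44F replicate 2 or 3 or any LTED-B replicate, adjusted p up to 0.00229).

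The ISR genes were called in both cell lines. Of 7 genes, 4, 4, 2 and 4 were called higher in MM134 LTED-A, -B, -D and -E, and 1, 1, 1 and 2 were called lower. In each SUM44 variant 5 were called higher and 1 lower. Of genes with at least 5 CPM, 11.0% to 14.5% were called higher in the MM134 lines and 12% and 16.6% in the SUM44 lines. ATF4, the transcription factor at the centre of the response, stayed under 1.5-fold in every MM134 variant. It was at 209.6, 200.3 and 205 CPM in parental wells, 285, 290.3 and 305 in LTED-A, 224, 228 and 237 in LTED-B, 181, 189 and 189 in LTED-D and 231, 231 and 236 in LTED-E (log2 fold changes -0.13 to 0.51). In SUM44 it was at 215, 216 and 182 CPM in SUM44F, 478 and 556 in LTED-A and 457, 468 and 477 in LTED-B (1.34 ± 0.11 and 1.19 ± 0.10, adjusted p 3.98e-06 and 3.99e-06). SUM44PE was at 251, 265 and 262 CPM, and both variants were also called against it (1.03 and 0.88). The neighbours of ATF4 on chromosome 22 had a median of 0.39 in SUM44 LTED-A and 0.06 in LTED-B. ATF4 is known to be controlled mainly in translation, which these counts do not show.

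TRIB3, a pseudokinase that feeds back on ATF4, had the largest fold change of the 39 genes in any LTED line, in MM134 LTED-A. In MM134 it was at 16.8, 15.9 and 15.3 CPM in parental wells, 249, 251 and 261 in LTED-A, 74.4, 78.2 and 77.7 in LTED-B, 47.6, 49.0 and 49.0 in LTED-D and 128, 125 and 128 in LTED-E. The variants were widely spaced, with log2 fold changes of 3.98 ± 0.04, 2.26 ± 0.04, 1.61 ± 0.04 and 3.00 ± 0.03 (adjusted p at most 4.45e-17) and a called difference among them (largest 2.37, adjusted p 9.88e-20). In SUM44F, which started higher, it was at 97.8, 96.4 and 88.2 CPM, against 217 and 257 in LTED-A and 205, 215 and 230.5 in LTED-B (1.33 ± 0.09 and 1.20 ± 0.09). The neighbours of TRIB3 on chromosome 20 had medians of 0.28, 0.22, 0.29 and 0.32 in the MM134 variants, and their part was not tested.

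CHAC1, an enzyme that degrades glutathione, was one of the least abundant of the 39 genes per length of transcript (0.320 CPM per kb in MM134 parental cells). It was at 0.744, 0.674 and 0.551 CPM in MM134 parental wells, 2.93, 3.04 and 3.27 in LTED-A, 2.83, 2.46 and 2.59 in LTED-B, 1.06, 0.983 and 1.28 in LTED-D and 2.47, 2.82 and 2.53 in LTED-E. LTED-A, LTED-B and LTED-E were close together (2.21 ± 0.14, 1.99 ± 0.14 and 1.99 ± 0.14). LTED-D rose less (0.77 ± 0.16, adjusted p 0.000809), and that call was lost in 5 of the 15 fits without 1 library (without any parental replicate, LTED-D replicate 1 or LTED-D replicate 3, adjusted p up to 0.0221). In SUM44 CHAC1 was at 2.76, 2.42 and 2.60 CPM in SUM44F, 8.21 and 8.03 in LTED-A and 8.28, 8.58 and 9.11 in LTED-B (1.65 ± 0.12 and 1.74 ± 0.11).

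ASNS, asparagine synthetase, rose more in SUM44 than in MM134. In MM134 it was at 34.3, 30.4 and 32.0 CPM in parental wells, 62.6, 58.4 and 60.8 in LTED-A, 53.4, 59.2 and 60.2 in LTED-B, 48.5, 47.9 and 45.7 in LTED-D and 56.2, 58.0 and 53.9 in LTED-E (0.57 to 0.91, with LTED-D just under 1.5-fold). ASNS was at 33.1, 34.2 and 31.4 CPM in SUM44F, in LTED-A at 106 and 117 and in LTED-B at 100.3, 98.7 and 93.1 (1.76 ± 0.07 and 1.57 ± 0.07, adjusted p 4.77e-08 and 4.46e-08). DDIT3 (CHOP), a transcription factor tied to cell death under lasting ER stress, was at 7.75, 7.69 and 7.84 CPM in MM134 parental wells, 18.1, 17.2 and 18.8 in LTED-A, 12.9, 12.2 and 12.99 in LTED-B, 10.8, 10.9 and 11.4 in LTED-D and 14.7, 13.6 and 13.7 in LTED-E. It was called in all but LTED-D (1.21 ± 0.05, 0.72 ± 0.05, 0.52 ± 0.06 and 0.86 ± 0.05). In SUM44 DDIT3 was at 23.7, 25 and 18.8 CPM in SUM44F, in LTED-A at 40.9 and 49.2 and in LTED-B at 49.3, 47.1 and 49.4 (1.01 ± 0.12 and 1.11 ± 0.11).

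PPP1R15A (GADD34), which directs the phosphatase that removes phosphate from eIF2 and which ATF4 and DDIT3 are known to induce, was the 1 gene lower in every LTED line. It was at 14.8, 15.5 and 13.9 CPM in MM134 parental wells, 8.21, 8.06 and 9.26 in LTED-A, 9.35, 9.71 and 9.03 in LTED-B, 6.68, 7.55 and 6.90 in LTED-D and 7.12, 6.23 and 6.92 in LTED-E. In SUM44 it was at 18.6, 17.5 and 16.0 CPM in SUM44F, 8.03 and 8.49 in LTED-A and 6.14, 7.12 and 6.60 in LTED-B. No LTED sample of either line overlapped its parental wells. The log2 fold changes were -0.80 ± 0.07, -0.65 ± 0.07, -1.05 ± 0.07 and -1.12 ± 0.07 in MM134 and -1.07 ± 0.11 and -1.39 ± 0.10 in SUM44 (adjusted p at most 3.29e-05), and both SUM44 calls held against SUM44PE (-1.19 and -1.52). DDIT4 (REDD1), an inhibitor of mTORC1, was called only in MM134 LTED-E, where it was lower (-0.85 ± 0.05).

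**Figure D3:**
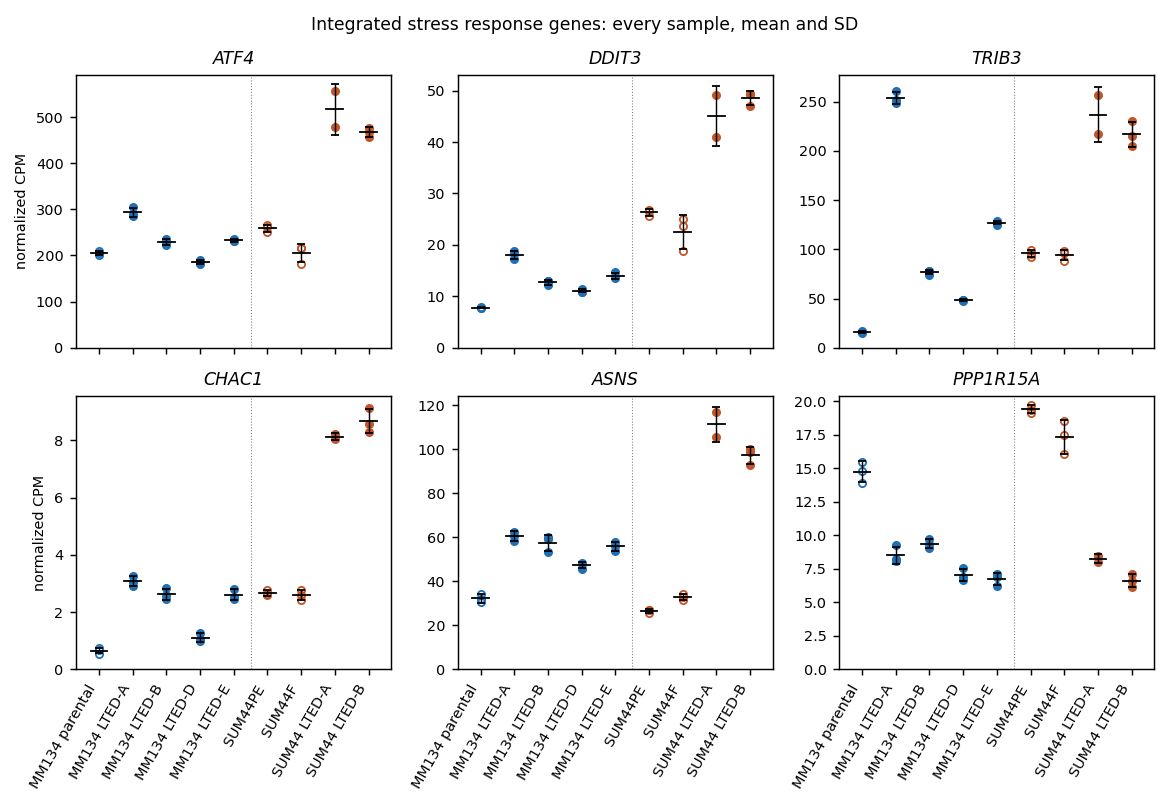
Level (normalized CPM, linear axes from 0) of 6 ISR genes in each group. Points are samples, open for parental cultures, and bars are mean and SD (2 samples in SUM44 LTED-A, 3 elsewhere). PPP1R15A is lower in all 6 LTED lines, while ATF4 passes 1.5-fold in SUM44 only.

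The differences among the LTED lines of 1 parent were tested next. In MM134, 12 of the 39 genes (30.8%) differed among the 4 variants, where 19.6% of all genes tested and 25% of those with at least 5 CPM did, and 5 of the 12 were ISR genes (ATF4, DDIT3, DDIT4, TRIB3 and CHAC1). The others were CREB3L1, FKBP11, ERO1B, HERPUD1, EDEM1, SEL1L and DERL1. LTED-D had the smallest change of the 4 in DDIT3, TRIB3 and CHAC1 and the largest in EDEM1 and SEL1L. In SUM44, 5 of the 39 (12.8%) differed between LTED-B and LTED-A, where 7.42% of all genes and 12.6% of those with at least 5 CPM did. PDIA4 and PDIA6 were higher in LTED-B, and XBP1, CREB3L1 and ERO1B were higher in LTED-A. This count rested on few wells: it was 1 without LTED-B replicate 2 or without LTED-B replicate 3, 2 without LTED-B replicate 1, 3 without SUM44F replicate 2, and 6 without SUM44F replicate 1.

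SUM44PE differed from SUM44F in these genes about as often as in other genes of like level. Of the 39, 1 was called higher (XBP1, 1.27 ± 0.09) and 2 lower (HERPUD1, -0.70 ± 0.07, and ERO1B, -1.46 ± 0.07), where 2.85% and 2.72% of all genes were. These 3 genes are 7.69% of the 39, and 8.37% of genes with at least 5 CPM were called. With SUM44PE as the parental culture, XBP1, HERPUD1 and ERO1B each lost their call in at least 1 SUM44 LTED line. So did CRELD2 in both lines and PDIA6 in LTED-A. Against SUM44PE, 13 genes were called higher and 1 lower in LTED-A (7.05% and 7.27% of all genes) and 22 and 2 in LTED-B (10.5% and 9.72%). Both variants then shared 10 higher genes (ATF4, DDIT3, TRIB3, CHAC1, ASNS, ERO1A, FKBP11, HYOU1, EDEM1 and SSR1) and 1 lower gene (PPP1R15A). The share of all genes called in both against SUM44PE was not determined. It can be at most the share called in LTED-A, 7.05% higher and 7.27% lower. Both comparisons used the same SUM44PE libraries.

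Whether the change was the same in both cell lines was tested as an interaction, in which the average change over the SUM44 lines was subtracted from that over the MM134 lines. Of the 39 genes, 7 changed more upward in MM134 and 2 more upward in SUM44, where 10.8% and 10.2% of all genes did. The 9 genes are 23.1% of the 39, near the share of all genes and below the 32.7% of genes with at least 5 CPM. TRIB3 (1.44 ± 0.07, adjusted p 2.2e-13), CREB3L1 (1.41 ± 0.30, adjusted p 0.000399) and CREB3L2 (1.05 ± 0.17, adjusted p 2.33e-05) rose more in MM134. HERPUD1 (1.27 ± 0.06), EDEM2 (0.97 ± 0.10), SYVN1 (0.63 ± 0.13) and ERO1B (1.49 ± 0.08) had the same sign. ATF4 (-1.09 ± 0.07, adjusted p 7.56e-12) and ASNS (-0.89 ± 0.07, adjusted p 2.06e-10) rose more in SUM44. SYVN1 lost its call without SUM44F replicate 1 (0.58, adjusted p 0.00162).

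With SUM44PE as the SUM44 parental culture, 4 genes were higher and 3 lower in this comparison, where 10.7% and 11.4% of all genes were, so neither count was above the share of all genes. TRIB3 (1.43), CREB3L2 (1.11), EDEM2 (1.08), ATF4 (-0.78) and ASNS (-1.22) were called again, and CREB3L1 (1.08, adjusted p 0.00572), HERPUD1 (0.55), SYVN1 (0.46) and ERO1B (0.02) were not. XBP1 (0.78) and DDIT4 (-0.73) were called there and not with SUM44F. The sign of the XBP1 difference thus turned with the parental culture, from -0.47 with SUM44F, where it was not called.

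**Figure D4:**
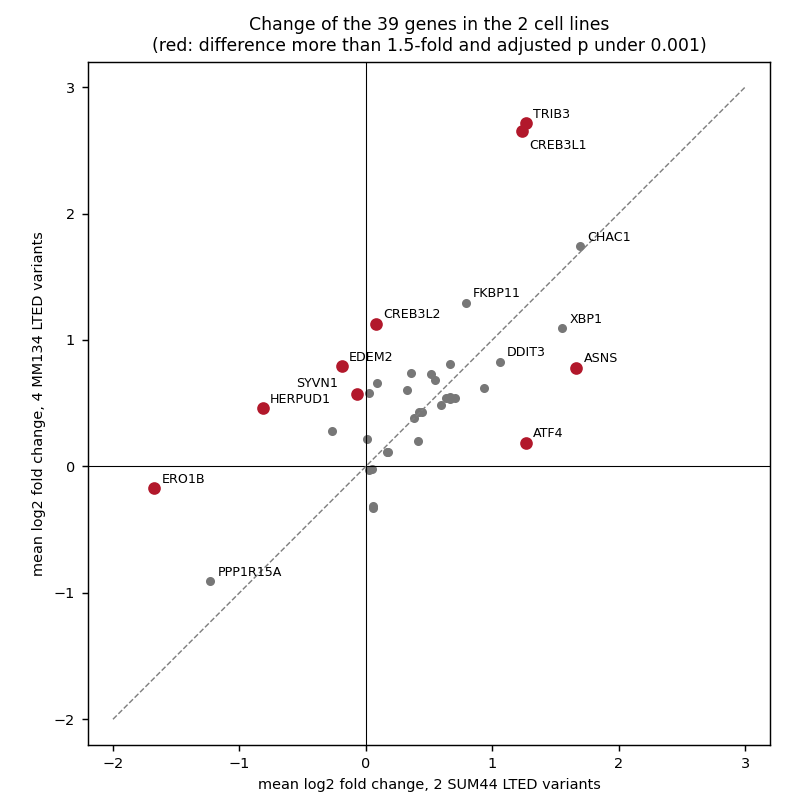
Mean log2 fold change of each of the 39 genes over the 2 SUM44 LTED variants (x axis) and over the 4 MM134 LTED variants (y axis), both against their parental cells (SUM44F for SUM44), with the line of equal change dashed. Red genes differ between the lines (more than 1.5-fold, adjusted p under 0.001): 7 lie above the dashed line and 2, ATF4 and ASNS, below it.

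The genes that carry an exact ERSE can be set beside the rest. In MM134 the median log2 fold change of the 8 genes with the element was 0.63, 0.58, 0.45 and 0.79 in LTED-A, -B, -D and -E, and that of the 29 without it was 0.55, 0.46, 0.41 and 0.55. In SUM44 the medians were 0.22 and 0.18 in LTED-A and 0.66 and 0.53 in LTED-B. The groups overlap throughout. The 8 genes did not all move one way: ERO1B, which has the element, was the gene with the lowest log2 fold change of the 39 in SUM44 LTED-A and LTED-B. Of the 3 genes with a C/EBP-ATF element, CHAC1 and ASNS were called higher in variants of both lines. HERPUD1 was called higher in MM134 LTED-A and LTED-B, and lower in SUM44 against SUM44F but not against SUM44PE. Genes with no exact match to this element, such as TRIB3, DDIT3 and ERO1A, were also called higher in variants of both lines.

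**Figure D5:**
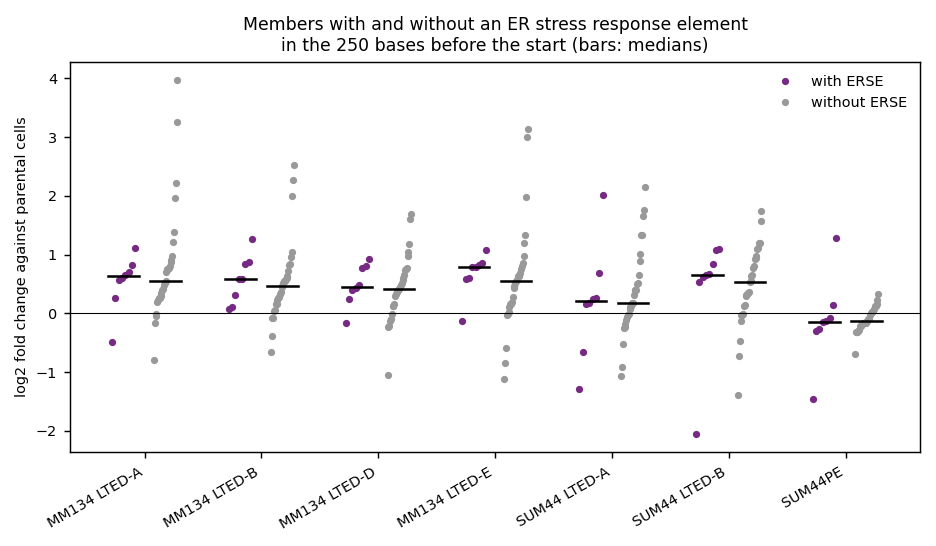
Log2 fold change against parental cells of the 8 genes with an exact ERSE in the 250 bases before their start (purple) and of the 29 with a promoter entry and no exact ERSE (grey), in each LTED line and in SUM44PE. Bars are medians, and the 2 sets overlap in every column.

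In a wider list of 105 other UPR and ISR genes, more were called higher than lower in each LTED line. Of 103 tested, 36, 18, 20 and 33 (35%, 17.5%, 19.4% and 32.0%) were called higher and 2, 4, 3 and 4 lower in MM134 LTED-A, -B, -D and -E. Of all genes with at least 5 CPM, 14.5%, 11%, 13.9% and 12.3% were called higher in these lines, so that LTED-B and LTED-D lay nearer to that share. The shares called lower were 11.3%, 8.85%, 8.38% and 11.9%. In SUM44, 27 and 36 of the 103 (26.2% and 35%) were called higher and 3 and 1 lower in LTED-A and LTED-B. There 12% and 16.6% of all genes with at least 5 CPM were called higher and 9.27% and 9.76% lower. Without SUM44F replicate 1 the counts were 25 and 2 in LTED-A (4 calls lost and 1 gained) and 35 and 1 in LTED-B (2 lost and 1 gained). At least 3 of the 4 MM134 variants shared 20 higher calls and 3 lower ones, where 6.66% and 6.83% of all genes tested were called. The share of all genes called in all 4 was not determined. Called higher in all 4 MM134 variants were 13 of the 103, led by NUPR1, a stress-induced nuclear protein (2.03 to 4.65), SSR4, a subunit of the translocon-associated complex (0.90 to 1.39), ERN1, which encodes IRE1 itself (0.89 to 1.85), and the glutamine transporter SLC1A5 (0.86 to 1.26). Lower in all 4 were STC2, a secreted glycoprotein (-4.21 to -1.004), and DNAJC1, an ER co-chaperone (-1.503 to -0.68). In both SUM44 variants 19 were called higher, led by GDF15, a stress cytokine (4.12 to 5.08), the cystine transporter SLC7A11 (3.497 to 3.62), CBS, of cysteine synthesis (2.57 to 2.82), and STC2 (2.53 to 2.88), and 0 were lower in both. Over all genes tested, 3.87% were called higher in both and 4.75% lower in both. ERN1 was called lower in SUM44 LTED-A (-0.76 ± 0.10, adjusted p 0.000163).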

How the data were processed

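RNA from 27 wells (9 groups of 3) was sequenced after stranded total RNA library preparation. The authors mapped reads to hg38 (Ensembl release 82) and deposited estimated counts per gene from Salmon 0.6.0, not normalized, for 60619 genes. Here the expected counts were rounded to whole numbers, filtered (filterByExpr), scaled by TMM and tested with the quasi-likelihood F test of edgeR 4.0.16 (R 4.3.3) in separate fits for MM134, for SUM44, for SUM44PE against SUM44F and for both lines together. Calls needed an adjusted p under 0.001 (Benjamini-Hochberg over all genes of the fit) and more than 1.5-fold. The SE is the log2 fold change over the square root of F. Salmon can divide reads between near-identical genes, so small changes of paralogs are less certain. Levels are CPM over all 26 samples (replicates 2 and 3 of SUM44 LTED-A merged), and exon lengths for levels per kb came from GENCODE v44. The depth of each library sets the precision of low genes such as CHAC1. The fit was tested on simulated data.

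The 39 genes and the lists were chosen with earlier results of these data known. Values in every sample are given for genes with calls of 1 direction in 3 or more MM134 variants or in both from SUM44, or between the cell lines with a difference above 2-fold, and for XBP1, HSPA5, ATF4, DDIT3 and FKBP11. The others are given by range and count. Other pathway genes were named if called in all 4 MM134 variants or both SUM44 variants, at most 4 in each direction, by the largest smallest change. Neighbours are the 40 nearest tested genes with at least 5 CPM. Same-numbered wells did not as a rule deviate together (median r -0.01 in MM134 and -0.06 in SUM44). Single values ran from -0.38 to 0.30 in MM134 and from -0.25 to 0.18 in SUM44. Replicate numbers were therefore not used as a block in the main fits. Alternatives were DESeq2 1.42.0, RLE size factors, no filter, thinned counts, other thresholds, a replicate block and leaving out each library. Use of SUM44PE as parental culture and omission of SUM44F replicate 1 were chosen after seeing the data. A search of protein sequences was planned and is not reported here.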

Additional observations from a re-analysis of the deposited data

Results flagged for a closer look

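The change in MM134 differed from that in SUM44, by the test of the difference itself, for 9 of the 39 genes (23.1%, where 10.8% of all genes were called higher and 10.2% lower, and 32.7% in all of those with at least 5 CPM). On the log2 scale the change in MM134 minus that in SUM44 was 1.49 for ERO1B, 1.44 for TRIB3, 1.41 for CREB3L1, 1.27 for HERPUD1, 1.05 for CREB3L2, 0.97 for EDEM2, 0.63 for SYVN1, -0.89 for ASNS and -1.09 for ATF4. With SUM44PE in place of SUM44F, ERO1B was at 0.02, CREB3L1 at 1.08, HERPUD1 at 0.55 and SYVN1 at 0.46, none of them called, and the other 5 were called with the same sign.

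The fibroblast markers of SUM44F replicate 1 summed to 361.1 CPM, above every other sample. Their part in the SUM44 results was not tested beyond leaving this library out, after which the calls of PDIA6 in LTED-A and of SYVN1 between the lines were lost and that of HSPA5 between the SUM44 variants was gained.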

How the results depend on the processing

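No called value of the 39 genes changed sign under any alternative fit of the same samples. With SUM44PE in place of SUM44F, ERO1B in LTED-A turned from -1.28 to 0.20 and XBP1 in LTED-B from 1.10 to -0.16, neither called there, the count of lower genes was 1 in LTED-A and 1 in both variants, and 4 genes rose more in MM134. The cause was not tested. With no minimum fold change more genes were called by construction: 33 higher and 2 lower in MM134 LTED-A, 30 and 3 in LTED-B, 29 and 3 in LTED-D, 29 and 2 in at least 3 variants, 35 that differed among the variants, and 13 upward and 5 downward in MM134 against SUM44. The SUM44 LTED-B against LTED-A count of 5 was 8 at an adjusted p under 0.05, 8 with no filter, 8 with DESeq2 and 1 to 7 when 1 library was left out, and the cause was not tested. Of the 234 gene values against parental cells, 230 kept their side of the thresholds with DESeq2, 232 with RLE size factors, 229 with no filter and 227 with thinned counts. Of 2964 fits of such values without 1 library, 2913 did.

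The replicate block, which added a term shared by wells of the same number, gave 20 higher and 1 lower gene in MM134 LTED-A, 15 and 1 in LTED-B, 13 and 1 in LTED-D and 20 and 3 in LTED-E. With SUM44 LTED-A replicates 2 and 3 kept separate, it gave 9 and 3 in SUM44 LTED-A and 19 and 3 in LTED-B. The SUM44 LTED-A values rest on 2 samples that stood far apart, and low counts limit genes such as CHAC1, CREB3L1 and FKBP11.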

Other observations

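STC2, a secreted glycoprotein known as a target of ATF4 and of estrogen receptor, was one of the other pathway genes with opposite changes in the cell lines. In MM134 it was at 40.01, 36.2 and 35.6 CPM in parental wells, 11.1, 12.2 and 11.1 in LTED-A, 17.4, 19.2 and 19.0 in LTED-B, 7.88, 7.66 and 7.64 in LTED-D and 1.95, 1.80 and 2.23 in LTED-E. In SUM44 it was at 76.9, 77.4 and 66.4 CPM in SUM44F, 521 and 559 in LTED-A and 412, 438 and 429 in LTED-B, with 348, 384 and 384 CPM in SUM44PE. The difference between the lines was -5.01 ± 0.08 (log2, adjusted p 2.95e-22 in edgeR's test). SUM44PE was itself 2.33 above SUM44F on the log2 scale, so that the SUM44 LTED wells lay nearer to SUM44PE than to SUM44F.

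GDF15, a cytokine of the stress response, was at 0.260, 0.195 and 0.267 CPM in SUM44F and at 3.85 and 4.63 in LTED-A and 7.35, 8.60 and 8.89 in LTED-B. SUM44PE held 3.01, 3.06 and 3.40 CPM, 3.67 above SUM44F on the log2 scale. In MM134 it was at 2.83, 2.75 and 2.56 CPM in parental wells, with log2 fold changes of -0.25 to 0.58 in the LTED lines.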
